A study of Mus musculus with 12 samples.

Results

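Death receptors, the adaptors that dock to them and the caspases they switch on were followed as 9 genes: Fas, Tnfrsf10b, Tnfrsf1a, Fadd, Cflar, Casp8, Casp9, Apaf1 and Pidd1. They were chosen by name for their roles in the extrinsic and intrinsic apoptosis pathways, with earlier results of these data known. They are 9 of the 24421 genes counted in the experiment. All 9 passed the filter on low counts, which kept 15220 genes for testing. Transcripts were sequenced from mouse embryonic fibroblasts (MEFs) of 2 genotypes, the line labelled Null (called WT here) and a line in which Tfeb and Tfe3 had both been targeted by CRISPR (TFEB/TFE3 DKO). Each genotype was either left untreated or given 100 µM etoposide for 8 hr, with 3 libraries in each of the 4 groups. The labels call the control cells untreated, whereas the methods of the paper describe a DMSO control. The label Null was taken to mean the WT MEFs of the paper, which does not use that name for a MEF line. The paper says that its MEFs were immortalized with SV40, which can affect the stability of p53. There was 1 line per genotype, so genotype and line cannot be told apart. RNA was isolated with 1 of 2 column kits, and which library came from which kit is not given in the sources used here. Nothing in the labels says that the 3 libraries of a group came from separate cultures, so p-values measure only the spread between these libraries.

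Death receptors are membrane proteins of the TNF receptor family. Some of them, Fas among these, recruit the adaptor FADD when bound by ligand. FADD in turn gathers caspase-8, which becomes active by dimerization. The protein encoded by Cflar, known as c-FLIP, occupies the same platform and limits that activation. In the intrinsic route, cytochrome c released from mitochondria assembles APAF1 into the apoptosome, which activates caspase-9. Etoposide traps topoisomerase II on DNA and causes double-strand breaks, and in fibroblasts Fas, Tnfrsf10b, Apaf1 and Pidd1 are known targets of p53.

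The targeted genes were examined first. Tfeb was at 38.9, 39.2 and 42.1 CPM (counts scaled to library size with TMM factors) in untreated WT MEFs and at 4.60, 6.09 and 4.68 CPM in untreated DKO MEFs. After etoposide it was at 11.4, 10.2 and 10.4 CPM in WT MEFs and at 1.92, 1.61 and 2.20 CPM in DKO MEFs. Every DKO library was below every WT library of the same treatment. Tfe3 mRNA was at 115, 110 and 114 CPM in untreated WT MEFs and at 94.1, 93.0 and 91.0 CPM in untreated DKO MEFs. After etoposide Tfe3 was at 68.5, 69.6 and 68.1 CPM in WT MEFs and at 70.7, 71.2 and 63.4 CPM in DKO MEFs, and these groups overlapped. Counts per gene do not show an edited site, so Tfeb supports the labels by its level and Tfe3 cannot be used to check them.

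The p53 targets Cdkn1a, a cell cycle inhibitor, and Mdm2, the ubiquitin ligase that degrades p53, served as a check of the treatment. Cdkn1a went from 65.7 ± 5.72 to 506 ± 7.30 CPM in WT MEFs and from 39.7 ± 1.14 to 241 ± 13.7 CPM in DKO MEFs (mean ± SD, n = 3). Mdm2 went from 121 ± 5.71 to 1834 ± 55.8 CPM in WT MEFs and from 109 ± 2.38 to 589 ± 5.21 CPM in DKO MEFs. Both genes were higher in each of the 6 etoposide libraries than in any untreated library.

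Of 10 fibroblast markers, 9 averaged at least 1 CPM over the 12 libraries. Their summed level was 7063 to 7170 CPM in untreated WT, 11341 to 11918 CPM in untreated DKO, 3948 to 4041 CPM in etoposide-treated WT and 4964 to 5292 CPM in etoposide-treated DKO MEFs. Single markers did not all follow the sum: Vim, an intermediate filament gene, was at 1631 ± 19.6 CPM in etoposide-treated WT and at 801 ± 9.74 CPM in etoposide-treated DKO MEFs, and the surface marker Thy1 was at 4.21 ± 0.251 CPM in untreated WT and at 0.0365 ± 0.0220 CPM in untreated DKO MEFs. Of the leukocyte markers, Ptprc, Adgre1 and Cd3e averaged under 0.4 CPM in each group, and the lysosomal gene Cd68 was at 1.44 ± 0.212 CPM in untreated and 11.96 ± 0.478 CPM in etoposide-treated WT MEFs, against 1.56 ± 0.460 and 3.08 ± 0.341 CPM in DKO MEFs. The 3 muscle markers summed to 2.01 to 2.24 CPM in untreated and 33.6 to 38.5 CPM in etoposide-treated WT MEFs, nearly all from Des, and to 0.316 to 0.489 and 2.32 to 2.58 CPM in DKO MEFs, with the myogenic factors Myod1 and Myog at 0 in every untreated library. The 5 epithelial markers summed to 2.26 to 2.87 CPM in untreated and 2.99 to 3.54 CPM in treated WT MEFs. In DKO MEFs they summed to 5.04 to 5.92 CPM before and 1.99 to 2.39 CPM after etoposide. The 4 endothelial markers summed to 0.0615 to 0.221 CPM in untreated and 2.19 to 2.89 CPM in treated WT MEFs. In DKO MEFs the endothelial sums were 0.0543 to 0.211 and 0.888 to 1.52 CPM. Cd68 and the muscle and endothelial sums were thus higher in treated than in untreated MEFs of each genotype. The epithelial sum was higher after etoposide in WT and lower in DKO MEFs. The part of other cell types in the results was not tested. In bulk RNA, fewer cells of a kind and less RNA per cell cannot be told apart.

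Counts on genes per library ran from 45577023 to 104120871, a ratio of 2.28, and the lowest total belonged to an etoposide-treated DKO library. Pidd1 had 145 to 386 counts in untreated libraries, where it was the least abundant member, and every other member had at least 558 counts in every library.

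Etoposide changed all 9 genes in WT MEFs. The receptors Fas and Tnfrsf10b, the apoptosome scaffold Apaf1 and the p53-induced death domain protein gene Pidd1 rose by at least 2-fold, Cflar, Casp8 and Fadd rose by less, and the TNF receptor Tnfrsf1a and the initiator caspase gene Casp9 fell. By the quasi-likelihood test of edgeR, with p-values adjusted by Benjamini-Hochberg over all genes and a threshold of 0.05, 7 of 9 members were higher and 2 lower, while 41.7% of all genes tested were higher and 36.8% lower. Of the 9 members, 4 were higher by at least 2-fold, against 22.2% of all genes tested. The median log2 fold change was 0.51 over the members and 0.07 over all genes tested. The rise of Fadd was at the edge of the threshold and is described with that gene.

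In TFEB/TFE3 DKO MEFs the same treatment split the genes differently. Pidd1, Apaf1 and Tnfrsf10b rose, and Fas, Casp9, Tnfrsf1a, Cflar and Casp8 fell, of which Tnfrsf1a, Cflar and Casp8 turned to small positive values when libraries were scaled by their totals alone. With TMM scaling 3 of 9 members were higher and 5 lower, beside 44.0% and 31.3% of all genes tested. Pidd1 was the 1 member higher by at least 2-fold, against 18.4% of all genes tested. The median log2 fold change was -0.13 over the members and 0.14 over all genes tested. Scaling by library totals moved the median of all genes by 0.27 in this comparison, and 5 members were then higher and 2 lower, beside 61.4% and 19.5% of all genes tested.

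Fas encodes the receptor for Fas ligand and moved in opposite directions in the 2 genotypes, further than any other member that did. It was at 22.3, 18.8 and 17.8 CPM in untreated WT MEFs and at 84.0, 92.1 and 85.7 CPM after etoposide. In DKO MEFs it was at 39.6, 41.0 and 41.4 CPM before and at 21.97, 21.90 and 22.37 CPM after etoposide. The 3 etoposide-treated WT libraries were thus the highest of all 12, untreated DKO libraries came next, and etoposide-treated DKO libraries lay near the untreated WT ones, with 1 untreated WT library among them. Etoposide raised Fas 4.44-fold in WT MEFs (log2 fold change 2.15 ± 0.06 SE, edgeR adjusted p = 1.05e-14). In DKO MEFs Fas fell 1.84-fold (-0.88 ± 0.06 SE, adjusted p = 1.83e-09). Without treatment Fas was 2.07-fold higher in DKO than in WT MEFs, and after etoposide it was 3.95-fold lower (log2 -1.98 ± 0.06 SE, edgeR adjusted p = 5.65e-14). The response to etoposide differed between the genotypes by -3.03 ± 0.09 on the log2 scale (DKO minus WT, edgeR adjusted p = 1.41e-13), and no other member had a difference of that size.

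The Fas promoter is shown because this gene moved in opposite directions and its window holds an E-box. Promoters came from the RefSeq table of build GRCm38.p6, which gives 250 bases before and 50 after each start and held 8 of the 9 members. The letters CACGTG, which read the same on the other strand, and the longer TCACGTGA, which contains CACGTG, were searched on both strands. CACGTG was found in 7.15% of the 32851 promoters of the table and TCACGTGA in 0.974%. Among the 8 members Fas alone held CACGTG, 110 bases before the start, and none held TCACGTGA. The Fas window lies at chr19:34290409-34290708 on the plus strand, and capitals mark CACGTG.
Fas: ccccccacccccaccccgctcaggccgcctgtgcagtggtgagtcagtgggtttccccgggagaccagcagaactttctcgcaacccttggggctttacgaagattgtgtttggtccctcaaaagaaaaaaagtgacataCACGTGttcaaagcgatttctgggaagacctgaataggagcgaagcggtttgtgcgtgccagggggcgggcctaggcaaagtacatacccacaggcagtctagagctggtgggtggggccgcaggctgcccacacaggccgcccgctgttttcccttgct

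Tnfrsf10b encodes the mouse receptor for TRAIL. It was at 61.6, 69.9 and 61.9 CPM in untreated WT MEFs and at 151, 150 and 147 CPM after etoposide. DKO libraries were at 50.3, 52.9 and 51.5 CPM before and at 66.1, 70.6 and 61.9 CPM after etoposide. Treated WT libraries stood far above all others, and treated DKO libraries reached the range of untreated WT libraries. Etoposide raised Tnfrsf10b 2.32-fold in WT (log2 1.21 ± 0.05 SE, edgeR adjusted p = 1.05e-12) and 1.28-fold in DKO MEFs (0.36 ± 0.05 SE, adjusted p = 1.06e-05). The difference between the responses was -0.86 ± 0.07 (edgeR adjusted p = 4.15e-08), and after etoposide the level was 2.26-fold lower in DKO than in WT MEFs.

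Tnfrsf1a, the main TNF receptor of most cells, behaved otherwise. Untreated WT libraries were at 105, 102 and 104 CPM and treated ones at 79.9, 80.6 and 84.7 CPM. Untreated DKO libraries were at 97.7, 98.5 and 95.0 CPM and treated ones at 83.7, 88.8 and 79.0 CPM. Treatment lowered this receptor in each genotype without overlap, and treated WT and DKO libraries overlapped. The fall was 1.27-fold in WT (log2 -0.34 ± 0.04 SE, edgeR adjusted p = 8.28e-07) and 1.16-fold in DKO MEFs (-0.21 ± 0.04 SE, adjusted p = 0.0002), where scaling by library totals gave 0.06 instead. Between the genotypes the untreated difference of -0.10 ± 0.04 was at the edge of the threshold (edgeR adjusted p = 0.0487), and it was lost in 7 of the 12 fits that each left out 1 library (adjusted p up to 0.147, without the untreated DKO library 3), with DESeq2 (adjusted p = 0.0514) and with its size factors in edgeR (adjusted p = 0.0577). After etoposide the difference of 0.04 ± 0.04 did not pass (edgeR adjusted p = 0.444), and it turned to -0.02 with the size factors of DESeq2 or without the treated DKO library 2. The difference between the responses, 0.13 ± 0.06, did not pass either (edgeR adjusted p = 0.0656), although it did without the treated WT library 3 (adjusted p = 0.0330) or the treated DKO library 3 (adjusted p = 0.0157).

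**Figure D1:**
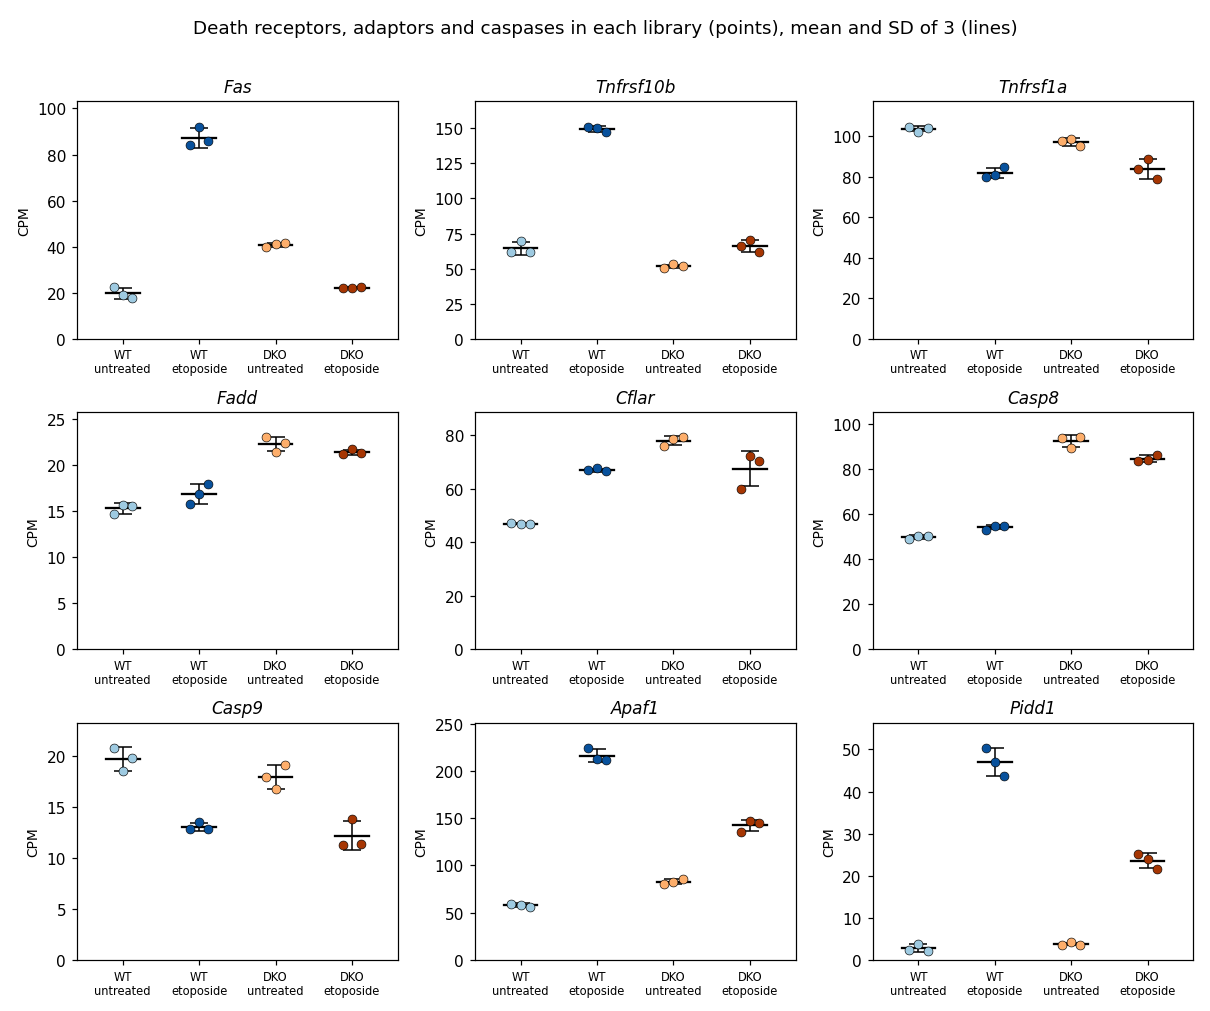
CPM after TMM scaling (vertical axes, from 0) of the 9 genes in the 12 libraries. Each point is 1 library, and lines give the mean and SD of 3. Fas in treated WT MEFs sits at 84.0 to 92.1 CPM and in treated DKO MEFs at 21.9 to 22.4 CPM.

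Fadd, the adaptor that links receptors to caspase-8, changed little with treatment and more between genotypes. It was at 14.6, 15.7 and 15.5 CPM in untreated and at 15.7, 16.8 and 18.0 CPM in treated WT MEFs. The DKO line had 23.0, 21.4 and 22.4 CPM before and 21.1, 21.7 and 21.3 CPM after etoposide. Every DKO library was above every WT library. Fadd was 1.46-fold higher in DKO MEFs without treatment (log2 0.54 ± 0.06 SE, edgeR adjusted p = 2.81e-07) and 1.27-fold higher after etoposide (0.35 ± 0.06 SE, adjusted p = 4.14e-05). The response to etoposide was 0.14 ± 0.06 in WT (edgeR adjusted p = 0.0369) and -0.06 ± 0.06 in DKO MEFs (adjusted p = 0.365), and scaling by library totals turned the latter to 0.22 (adjusted p = 0.00243). The WT call was lost without any filter (adjusted p = 0.137), with only the WT libraries in the fit (adjusted p = 0.0648) and in 9 of the 12 fits that each left out 1 library (adjusted p up to 0.219, without the treated WT library 3). The difference between the responses, -0.20 ± 0.08, had an edgeR adjusted p of 0.0495, and it was lost in 10 of the 12 fits without 1 library (adjusted p up to 0.138, without the treated WT library 3). It was lost as well with limma-trend (adjusted p = 0.0562), without any filter in edgeR (adjusted p = 0.0713) and with library totals (-0.09, adjusted p = 0.349).

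Cflar encodes c-FLIP, the catalytically inactive relative of caspase-8. It was at 47.4, 46.9 and 46.9 CPM in untreated WT MEFs and at 66.9, 67.6 and 66.6 CPM after etoposide. DKO MEFs held 76.0, 78.7 and 79.3 CPM before and 59.9, 72.4 and 70.6 CPM after etoposide. Untreated DKO libraries were the highest and untreated WT libraries the lowest, and after etoposide the genotypes overlapped. Cflar rose 1.43-fold in WT MEFs (log2 0.51 ± 0.05 SE, edgeR adjusted p = 1.22e-07). In DKO MEFs it fell 1.15-fold (-0.20 ± 0.05 SE, adjusted p = 0.00206), and scaling by library totals gave 0.07 with no call (adjusted p = 0.200). The difference between the responses was -0.71 ± 0.07 (edgeR adjusted p = 3.70e-07). Cflar was 1.66-fold higher in DKO than in WT MEFs without treatment, and after etoposide the difference of 0.02 ± 0.05 did not pass the threshold (edgeR adjusted p = 0.807) and turned to -0.05 with the size factors of DESeq2 or without the treated DKO library 2.

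Casp8, the initiator caspase of the receptor route, lies 36489 bases from Cflar on chromosome 1. It was at 49.0, 50.4 and 50.5 CPM in untreated and at 53.2, 55.0 and 55.0 CPM in treated WT MEFs. DKO MEFs held 93.8, 89.5 and 94.2 CPM before and 83.5, 84.0 and 86.5 CPM after etoposide. Each DKO library was far above each WT library. Casp8 was 1.85-fold higher in DKO MEFs without treatment (log2 0.89 ± 0.03 SE, edgeR adjusted p = 5.27e-13) and 1.56-fold higher after etoposide (0.64 ± 0.03 SE, adjusted p = 3.19e-11). Etoposide moved it by 0.12 ± 0.03 in WT and by -0.13 ± 0.03 in DKO MEFs, and in the latter scaling by library totals turned the change to a rise of 0.15 (edgeR adjusted p = 0.000806). The responses differed by -0.25 ± 0.05 (edgeR adjusted p = 0.000288).

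The ratio of Cflar to Casp8 counts within a library needs no scaling between libraries, and it was taken because c-FLIP and caspase-8 meet on the same adaptor. The ratio was 0.967, 0.931 and 0.928 in untreated WT MEFs and 1.26, 1.23 and 1.21 after etoposide. Among DKO libraries it was 0.810, 0.879 and 0.841 before and 0.717, 0.861 and 0.816 after etoposide. Treated WT libraries were the ones in which Cflar had more counts than Casp8, and DKO libraries overlapped between treatments. Treatment moved the mean log2 ratio by 0.39 in WT MEFs and by -0.08 in DKO MEFs (2-sided exact permutation p = 0.1 and p = 0.5, n = 3 against 3, where 0.1 is the smallest p the design allows). Between the genotypes it was lower in DKO MEFs by -0.16 untreated and by -0.63 after etoposide, each without overlap (exact permutation p = 0.1 for each, the smallest possible). These are ratios of mRNA counts of genes with different lengths, so a ratio of 1 does not mean equal numbers of transcripts.

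**Figure D2:**
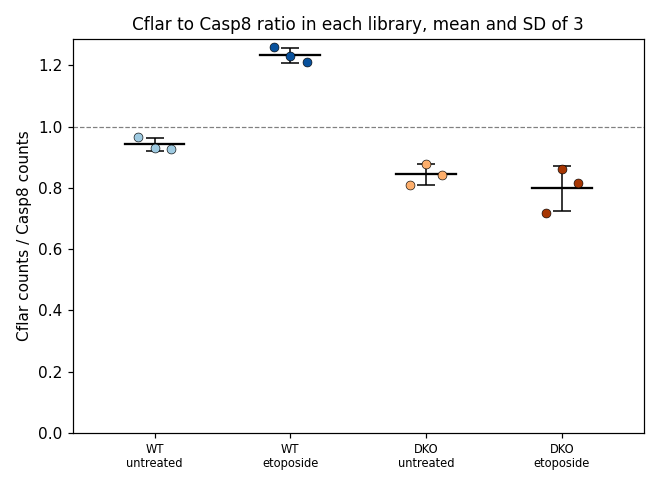
Counts of Cflar divided by counts of Casp8 (vertical axis, from 0) in each library, with the mean and SD of 3 per group and a dashed line at 1. Treated WT libraries lie at 1.21 to 1.26 and treated DKO libraries at 0.717 to 0.861.

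Apaf1, the scaffold of the apoptosome, rose in both genotypes. It was at 59.7, 58.6 and 55.7 CPM in untreated WT MEFs and at 224, 213 and 211 CPM after etoposide. DKO libraries went from 80.7, 82.4 and 85.4 CPM to 136, 147 and 145 CPM. No groups overlapped, and their order was treated WT, treated DKO, untreated DKO and untreated WT. The rise was 3.72-fold in WT (log2 1.90 ± 0.04 SE, edgeR adjusted p = 4.01e-16) and 1.72-fold in DKO MEFs (0.78 ± 0.04 SE, adjusted p = 3.15e-11). Between the genotypes the responses differed by -1.11 ± 0.06 (edgeR adjusted p = 1.20e-10). Apaf1 was thus 1.43-fold higher in DKO than in WT MEFs without treatment and 1.51-fold lower after it.

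Casp9, the initiator caspase that the apoptosome activates, fell in both genotypes. Untreated and treated WT libraries were at 20.7, 18.5 and 19.8 CPM and at 12.8, 13.5 and 12.8 CPM. Untreated and treated DKO libraries were at 17.9, 16.7 and 19.1 CPM and at 11.3, 13.8 and 11.4 CPM. Treated libraries lay below untreated ones of either genotype, and the genotypes overlapped at each treatment. The fall was 1.51-fold in WT (log2 -0.59 ± 0.08 SE, edgeR adjusted p = 2.95e-06) and 1.47-fold in DKO MEFs (-0.55 ± 0.08 SE, adjusted p = 9.07e-06). The difference between the responses was 0.04 ± 0.11 and did not pass the threshold (edgeR adjusted p = 0.804), and it turned to -0.03 with the size factors of DESeq2 and to -0.07 without the treated DKO library 2. Between the genotypes Casp9 did not pass the threshold either, untreated (-0.14 ± 0.08, adjusted p = 0.122; -0.26 and adjusted p = 0.00740 with library totals) or after etoposide (-0.10 ± 0.08, adjusted p = 0.267), although the second passed without the treated DKO library 2 (-0.22, edgeR adjusted p = 0.0186).

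Pidd1 encodes a death domain protein that assembles the PIDDosome, the platform that activates caspase-2. It was at 2.42, 3.86 and 2.24 CPM in untreated WT MEFs and at 50.3, 47.1 and 43.7 CPM after etoposide. DKO MEFs had 3.58, 4.19 and 3.66 CPM before and 25.1, 24.1 and 21.6 CPM after etoposide. Untreated libraries were low in both genotypes and overlapped, and treated WT libraries all lay above treated DKO libraries. Pidd1 rose 16.7-fold in WT (log2 4.06 ± 0.13 SE, edgeR adjusted p = 3.95e-14) and 6.13-fold in DKO MEFs (2.62 ± 0.13 SE, adjusted p = 1.14e-11), the largest rise of the 9 genes in each. The genotypes' responses differed by -1.44 ± 0.19 (edgeR adjusted p = 5.56e-06), and after etoposide the level was 1.999-fold lower in DKO than in WT MEFs, just under 2-fold. Without treatment Pidd1 was 1.36-fold higher in DKO MEFs (edgeR adjusted p = 0.0172), a call lost without the untreated WT library 1, the untreated WT library 3 or the untreated DKO library 2 (adjusted p = 0.0998, 0.0929 and 0.0951). The call was also lost with library totals (0.32, edgeR adjusted p = 0.0727) and with only the untreated libraries in the fit (0.42, adjusted p = 0.0686).

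The promoters of Apaf1 and Pidd1 are printed beside these values because both genes rose in both genotypes and each is a known p53 target. The p53 motif was searched on both strands as a pair of CATG cores 6 to 19 bases apart, present in 5.97% of all promoters of the table, and in its full form with no mismatch, present in 0.0731%. None of the 8 members with a promoter held either form, and none held a single copy of the full form's repeat, which 8.36% of promoters did. That says only that these letters are not in these windows. Apaf1 lies at chr10:91082694-91082993 and Pidd1 at chr7:141443976-141444275, both on the minus strand, in build GRCm38.p6, and with no motif found no base is in capitals.
Apaf1: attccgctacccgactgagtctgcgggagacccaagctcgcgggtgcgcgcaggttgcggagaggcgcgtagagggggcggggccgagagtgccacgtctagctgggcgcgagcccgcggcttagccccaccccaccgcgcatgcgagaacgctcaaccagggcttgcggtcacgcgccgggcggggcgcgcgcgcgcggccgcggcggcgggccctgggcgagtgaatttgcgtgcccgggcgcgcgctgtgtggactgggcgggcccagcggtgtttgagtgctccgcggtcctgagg
Pidd1: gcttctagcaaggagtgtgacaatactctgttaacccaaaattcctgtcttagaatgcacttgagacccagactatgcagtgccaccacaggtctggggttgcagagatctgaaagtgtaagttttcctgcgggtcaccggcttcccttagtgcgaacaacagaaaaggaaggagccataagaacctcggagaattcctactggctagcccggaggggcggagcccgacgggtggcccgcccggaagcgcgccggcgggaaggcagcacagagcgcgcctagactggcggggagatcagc

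Between the genotypes, 6 of the 9 genes were higher in DKO than in WT MEFs without treatment: Fas, Casp8, Cflar, Fadd, Apaf1 and Pidd1. Tnfrsf10b and Tnfrsf1a were lower. In edgeR's test that is 6 of 9 higher and 2 of 9 lower, beside 33.4% and 34.1% of all genes tested, and the median log2 fold change was 0.51 over the members and -0.02 over all genes. With library totals in place of TMM, 5 members were higher and 3 lower, beside 26.3% and 42.5% of all genes tested.

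After etoposide the order of several genes was the other way round. Casp8 and Fadd were still higher in DKO MEFs, and Fas, Tnfrsf10b, Pidd1 and Apaf1 were lower, so that 2 of 9 members were higher (36.9% of all genes tested) and 4 of 9 lower (35.2%). Fas and Tnfrsf10b were lower by at least 2-fold, as were 16.4% of all genes tested. The median log2 fold change was -0.10 over the members and -0.00 over all genes tested. This comparison shares its treated libraries with the etoposide comparisons, and the untreated one shares their controls, so the sets of values are not independent of each other.

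The response to etoposide was smaller or turned in DKO MEFs for 7 of the 9 genes, Fas, Pidd1, Apaf1, Tnfrsf10b, Cflar, Casp8 and Fadd, in the order of the difference. In the interaction test 7 of 9 members were lower, against 24.7% of all genes tested, and 0 of 9 higher, against 29.9%. Fas, Pidd1 and Apaf1 had a difference of at least 2-fold, as did 8.76% of all genes tested in that direction. The median was -0.71 over the members and 0.05 over all genes tested. Tnfrsf1a and Casp9 were the 2 members whose difference did not pass the threshold, and with library totals in place of TMM the difference passed for Tnfrsf1a (0.24, edgeR adjusted p = 0.00214) and no longer for Fadd.

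**Figure D3:**
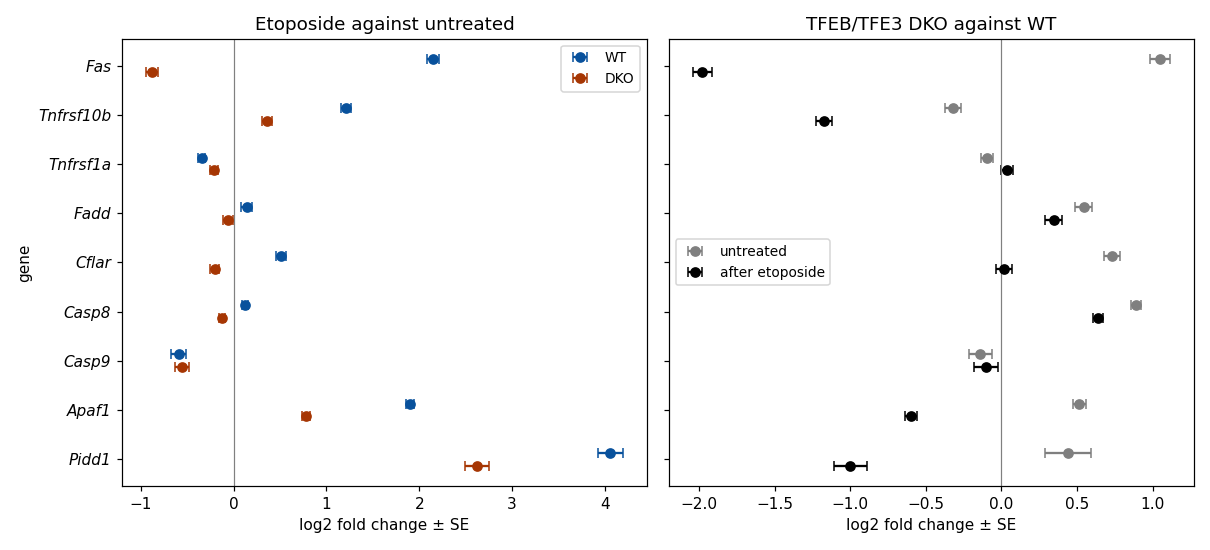
Log2 fold changes ± SE from edgeR (horizontal axes) of the 9 genes, for etoposide against untreated in each genotype and for DKO against WT MEFs at each treatment. Fas lies at 2.15 in WT and at -0.88 in DKO MEFs, and Pidd1 at 4.06 and 2.62.

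The scaling of libraries bears on the smaller of these values. In place of TMM, scaling by library totals moved the median of all genes by 0.17 in the WT and 0.27 in the DKO etoposide comparison, by -0.12 between untreated genotypes and by 0.10 in the interaction. Of all genes past the threshold, the share that was higher went from 53.1% to 63.8% for etoposide in WT, from 58.5% to 75.9% for etoposide in DKO, from 49.5% to 38.2% between untreated genotypes and from 54.8% to 65.0% in the interaction.

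Levels of different genes were compared per kilobase of exon (CPM per kb, summed exon length of GENCODE M21). In untreated WT MEFs Tnfrsf1a was highest at 40.0 ± 0.498, followed by Casp8 at 17.3 ± 0.289, Tnfrsf10b at 11.8 ± 0.870, Fas at 9.51 ± 1.15 and Apaf1 at 6.42 ± 0.226. Fadd, Casp9 and Cflar came next, at 3.91 ± 0.144, 3.78 ± 0.220 and 3.71 ± 0.0236, where Casp9 did not differ from either of the others beyond its spread, and Pidd1 was lowest at 0.627 ± 0.196. After etoposide Fas led in WT MEFs at 42.3 ± 2.08, above Tnfrsf1a at 31.5 ± 0.995, Tnfrsf10b at 27.4 ± 0.362 and Apaf1 at 23.9 ± 0.777.

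In untreated DKO MEFs the order began with Tnfrsf1a at 37.5 ± 0.711, Casp8 at 32.0 ± 0.901 and Fas at 19.7 ± 0.447 CPM per kb, and Tnfrsf10b and Apaf1 came next and did not differ beyond their spread (9.46 ± 0.239 and 9.18 ± 0.267). After etoposide Tnfrsf1a and Casp8 still led, at 32.4 ± 1.88 and 29.3 ± 0.542, followed by Apaf1 at 15.8 ± 0.662, Tnfrsf10b at 12.1 ± 0.805 and Fas at 10.7 ± 0.122. Fadd, Cflar and Pidd1 lay together at 5.47 ± 0.0698, 5.34 ± 0.530 and 5.21 ± 0.406. Casp9 was the lowest of the 9 after etoposide in both genotypes. The order depends on which exons count as the gene: with the longest transcript as length, Tnfrsf10b passed Casp8 in untreated WT MEFs (20.3 ± 1.49 against 19.3 ± 0.324, within the spread) and Tnfrsf1a in treated WT MEFs (47.0 ± 0.621 against 37.9 ± 1.20). Cflar moved from place 8 to place 6 and Fadd from 6 to 8 in untreated WT MEFs, and in treated DKO MEFs Cflar and Pidd1 passed Fadd. For Cflar the annotated exons sum to 12.669 kb and the longest transcript has 6.572 kb.

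**Figure D4:**
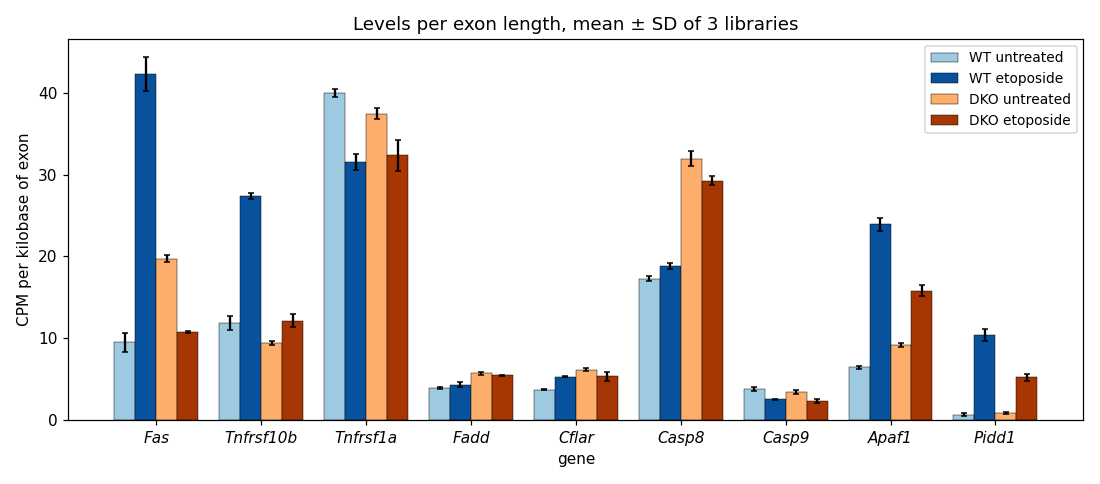
CPM per kilobase of exon (vertical axis, from 0) of the 9 genes, mean ± SD of 3 libraries per group. Tnfrsf1a stands highest in 3 of the 4 groups, and Fas at 42.3 in treated WT MEFs.

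Exons of 7 members share no base with another annotated gene. Fadd shares 239 exon bases (6.12% of its exons) with the antisense gene Faddos, which was not in the table of counts used here, and the strand setting of the counting is not given in the sources used here. Casp9 shares 94 bases each with Cela2a and Ctrc on the opposite strand, and these had at most 6 and 7 counts in any library.

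The other 47 genes of a pathway list of ligands, receptors, adaptors, caspases, mitochondrial factors, inhibitors, substrates and necroptosis genes were counted in the same tests. Of the 44 tested, 16 rose and 16 fell with etoposide in WT MEFs, and 15 rose and 17 fell in DKO MEFs (all genes tested: 41.7% and 36.8% in WT, 44.0% and 31.3% in DKO). Between the genotypes 19 were higher and 13 lower in untreated DKO MEFs, and 18 were higher and 15 lower after etoposide (all genes tested: 33.4% and 34.1% untreated, 36.9% and 35.2% after etoposide). In the interaction 13 were higher and 18 lower (all genes tested: 29.9% and 24.7%). Over the whole list, library totals in place of TMM moved 23 higher and 18 lower to 31 and 15 for etoposide in WT MEFs, 18 and 22 to 29 and 13 in DKO MEFs, and 25 and 15 to 20 and 22 between untreated genotypes. With library totals 50.3% of all genes tested were higher and 28.6% lower for etoposide in WT MEFs, 61.4% and 19.5% in DKO MEFs, and 26.3% and 42.5% between untreated genotypes. Over all 53 list genes tested, members included, the median log2 fold change was 0.09 for etoposide in WT and -0.05 in DKO MEFs, 0.12 between untreated genotypes, 0.04 between treated ones and -0.20 in the interaction. Over all genes tested these medians were 0.07, 0.14, -0.02, -0.00 and 0.05. In the list medians Ngfr and Casp1 were set to a bound of 3 counts per library, or left out, where a group had hardly any counts.

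Of 5 ligands, Fasl, Tnf and Lta did not pass the filter on low counts. Tnfsf10, which encodes TRAIL, the ligand of Tnfrsf10b, was at 1.25 ± 0.359 and 0.349 ± 0.121 CPM in untreated and treated WT MEFs and at 2.11 ± 0.191 and 1.31 ± 0.320 CPM in DKO MEFs. It fell 3.58-fold in WT and 1.60-fold in DKO MEFs, while its receptor rose in both. The fall in DKO MEFs did not pass the edgeR threshold with library totals (-0.41, adjusted p = 0.157), without the untreated DKO library 1 (adjusted p = 0.0661) or without the treated DKO library 2 (adjusted p = 0.106). Tnfsf15 fell 2.53-fold in WT and 2.86-fold in DKO MEFs.

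Among other receptors, the decoy receptor gene Tnfrsf23 rose 2.23-fold in WT MEFs, from 10.4 ± 0.541 to 23.1 ± 0.0660 CPM. DKO MEFs had it at 9.64 ± 0.241 and 9.47 ± 0.475 CPM, with no call (edgeR adjusted p = 0.759), and library totals turned the change of -0.02 to a rise of 0.25 (adjusted p = 0.00222). The responses differed by -1.18 ± 0.09 (edgeR adjusted p = 1.15e-08). Tnfrsf11b, which encodes the soluble decoy osteoprotegerin, was 9.69-fold higher in untreated DKO than in untreated WT MEFs, at 386 ± 17.9 against 39.8 ± 1.82 CPM. It fell to 53.05 ± 1.97 CPM in DKO and to 24.2 ± 0.763 CPM in WT MEFs. Tnfaip3, the ubiquitin-editing enzyme A20, was at 85.5 ± 3.85 and 83.9 ± 3.79 CPM in WT MEFs, whose ranges overlapped, and a log2 fold change of -0.03 there turned to 0.14 with library totals (edgeR adjusted p = 0.0223). In DKO MEFs it fell 3.25-fold, from 192 ± 15.6 to 59.1 ± 0.721 CPM.

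Of the other caspases, Casp6 rose 2.74-fold in WT and 1.28-fold in DKO MEFs, a difference of -1.10 ± 0.09 (edgeR adjusted p = 1.32e-08). Casp12 fell 2.19-fold in WT and 3.82-fold in DKO MEFs, and was 2.79-fold higher in untreated DKO than in untreated WT MEFs. The inflammatory caspase gene Casp1 had 1, 1 and 2 counts in untreated and 9, 1 and 3 counts in treated WT MEFs. In DKO MEFs it had 394, 511 and 372 counts before and 161, 279 and 336 counts after etoposide, and no fold is given against so few counts.

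Further down the pathway, Dffb, the nuclease that cuts DNA between nucleosomes, rose 11.7-fold in WT and 3.52-fold in DKO MEFs. It went from 4.49 ± 0.486 to 52.7 ± 1.86 CPM in WT and from 3.24 ± 0.0904 to 11.4 ± 0.466 CPM in DKO MEFs, a difference of -1.73 ± 0.10 (edgeR adjusted p = 6.25e-10). Dffa, its inhibitor and chaperone, rose by 0.49 on the log2 scale in DKO MEFs and differed in its response from WT MEFs by 0.66 ± 0.09 (edgeR adjusted p = 5.86e-06). Diablo, an antagonist of inhibitors of apoptosis, rose 1.59-fold in DKO MEFs. Birc6, one of those inhibitors, fell 2.42-fold in WT and 1.70-fold in DKO MEFs. The inhibitors did not move together. Birc3 fell 2.07-fold in WT and 3.03-fold in DKO MEFs, and Birc2 rose 1.47-fold in WT and fell 1.26-fold in DKO MEFs. Xiap had no call in WT (edgeR adjusted p = 0.604) and fell 1.16-fold in DKO MEFs.

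Of the necroptosis genes, Zbp1, a sensor of left-handed nucleic acids, rose 3.18-fold in WT and 4.12-fold in DKO MEFs. Mlkl went the other way, with the smaller rise in DKO MEFs. It rose 2.48-fold in WT and 1.25-fold in DKO MEFs, a difference of -0.98 ± 0.06 (edgeR adjusted p = 6.29e-10). The kinase gene Ripk3 was at 12.4 ± 0.651 and 13.5 ± 0.667 CPM in untreated and treated WT MEFs, which overlapped, with no call except with library totals (0.28, edgeR adjusted p = 0.0232). DKO libraries had 3, 7 and 6 counts before and 10, 5 and 8 counts after etoposide, so no fold is given for it between the genotypes either.

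**Figure D5:**
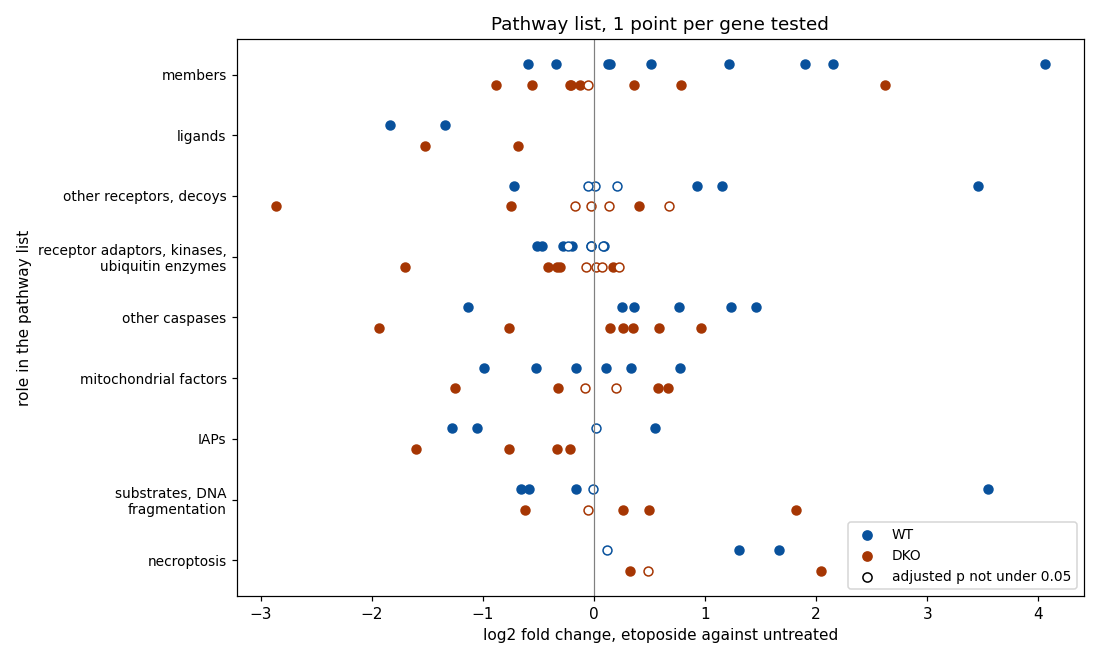
Log2 fold change for etoposide against untreated (horizontal axis) of the pathway list by role, 1 point per gene tested in WT and in DKO MEFs, open where the adjusted p was not under 0.05. Ngfr in both genotypes and Casp1 in WT MEFs are not drawn because at least 1 group had no more than 3 counts in any library. Dffb lies at 3.55 in WT and 1.82 in DKO MEFs.

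The genes most like each member over the 12 libraries were found by Pearson's r of log2 CPM among the 11999 genes whose mean reached 1 CPM. For Fas they were Sh3rf3, Pik3ip1 and Mmp11 (r = 0.988, 0.985 and 0.983), and for Tnfrsf10b Def6, Arvcf and Nudt22 (0.995, 0.994 and 0.992). For Tnfrsf1a they were 2810428I15Rik, Tead4 and Baz2a, for Fadd Trmt2b, Chil1 and Ctsz, and for Cflar Endod1, Osbpl1a and Thbs2. Casp8 was most like Postn, Zfp275 and Rora, Casp9 most like Epha3, B3gnt9 and Gmds. Apaf1 was most like Poglut1, Hyal1 and Acad8 (0.996, 0.996 and 0.996), and Pidd1 like Pvrl4, Rnf169 and Ercc5 (0.995, 0.993 and 0.993). The libraries form 4 groups of 3 and so are not 12 independent points, and r is given as a description of these libraries.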

How the data were processed

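The authors deposited 1 table of raw counts per gene for 12 RNA-Seq libraries, made from total RNA with a stranded kit after removal of ribosomal RNA. According to the paper, reads were trimmed with Cutadapt where needed, uniquely aligned with HISAT2 and counted with HTSeq on GENCODE genes. The submitters' processing notes name mm10, HISAT2 and featureCounts instead, and the table ends in 5 summary lines of the kind HTSeq writes. These lines entered neither library sizes nor tests. Versions and strand setting are not given in the sources used here. Genes held 53.4 to 63.1% of the counts of a library, the no-feature line 20.2 to 27.3%, the line for reads not unique 15.9 to 20.5% and the ambiguous line 0.428 to 0.513%. The share on genes was 56.0 to 58.9% in untreated and 53.4 to 55.0% in treated WT libraries. In DKO libraries it was 60.8 to 63.1% before and 57.6 to 59.1% after etoposide. The no-feature share was higher in treated than in untreated libraries of each genotype, without overlap. The part of these shares in the results was not tested.

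The analysis ran in R 4.3.3, and edgeR 4.0.16 was the main tool (filterByExpr, TMM, glmQLFit and glmQLFTest) in 1 model of 12 libraries with a group factor. There were 5 comparisons, each adjusted by the Benjamini-Hochberg method over 15220 genes, with a threshold of 0.05. Each SE is the log2 fold change divided by the root of its F value. The Cflar to Casp8 ratio was compared by an exact 2-sided permutation test. Positions and exon lengths came from GENCODE M21 (GRCm38), matched by symbol for all 56 genes of the pathway list, and promoters from RefSeq. The fit was also run on counts simulated from its own means and spread, with known changes in treated DKO libraries only. Such counts follow the model by design, so they cannot show how well it suits the real libraries.

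Named genes were the 9 members, Tfeb, Tfe3, Cdkn1a and Mdm2, and of the other list genes, in each comparison, the 3 highest and 3 lowest log2 fold changes of genes that passed the threshold and averaged 1 CPM or more. Not every gene this rule names is reported. Mlkl, Birc2, Birc3 and Xiap are given beside Zbp1 and Birc6, outside this rule, and their values under other settings are not reported. Likeness took the 3 genes with the highest r per member (log2 CPM, prior count 2). The members and lists were chosen with earlier results of these data known. Alternatives were DESeq2 1.42.0, limma 3.58.1 (limma-trend with robust estimates, as in the study), DESeq2 size factors or library totals in edgeR, no filter, a filter at a mean of 1 CPM, a replicate block, only the 2 groups compared, each library left out in turn, and another gene length.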

Additional observations from a re-analysis of the deposited data

Results flagged for a closer look

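The response to etoposide differed between WT and TFEB/TFE3 DKO MEFs, by the interaction term of the edgeR model, for 7 of the 9 genes, all lower, while 24.7% of all genes tested were lower and 29.9% higher. The differences, DKO minus WT on the log2 scale, were -3.03 for Fas, -1.44 for Pidd1, -1.11 for Apaf1, -0.86 for Tnfrsf10b, -0.71 for Cflar, -0.25 for Casp8 and -0.20 for Fadd. Fas was the member with every treated library above every untreated one in WT MEFs and every treated library below every untreated one in DKO MEFs by more than 1.5-fold. Casp8 and Cflar showed that arrangement with smaller differences, and with library totals in place of TMM their changes in DKO MEFs turned to 0.15 and 0.07. The Fadd difference was at the edge of the threshold.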

How the results depend on the processing

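Over 351 log2 fold changes of the 9 genes under other settings, 323 kept their direction and their side of the threshold, 11 lost the threshold, 2 passed it and 15 changed direction. Of 540 values with 1 library left out, 500 kept both, 29 lost the threshold, 3 passed it and 8 changed direction. Of 260 values of the other named genes under other settings, 252 kept both, and 392 of 396 did with 1 library left out. For etoposide in DKO MEFs, library totals in place of TMM gave 0.0610 for Tnfrsf1a, 0.215 for Fadd, 0.0695 for Cflar, 0.146 for Casp8 and 0.250 for Tnfrsf23. Between genotypes after etoposide, Tnfrsf1a was at -0.0240 with DESeq2, -0.0237 with its size factors in edgeR and -0.0280 with the stricter filter, and at -0.0237 to 0.0661 without 1 library. In that comparison Cflar was at -0.0450 with DESeq2, -0.0451 with its size factors, -0.000842 with library totals, -0.00433 without a filter and -0.0494 with the stricter filter, and at -0.0518 to 0.0725 without 1 library. In the interaction Casp9 was at -0.0252 with DESeq2, -0.0251 with its size factors and -0.0123 with the stricter filter, and at -0.0747 to 0.0895 without 1 library. For etoposide in WT MEFs Tnfaip3 was at 0.0179 with DESeq2, 0.0181 with its size factors, 0.140 with library totals and 0.0585 with the stricter filter, and at -0.0652 to 0.00223 without 1 library. Tnfrsf23 in DKO MEFs was at 0.0126 with the stricter filter. The cause was not tested.

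With the replicate number as a replicate block, 9 members passed the threshold for etoposide in WT, 8 for etoposide in DKO, 7 between untreated genotypes, 6 after etoposide and 6 in the interaction. The calls lost were Tnfrsf1a between untreated genotypes and Fadd in the interaction. Of 18 pairs of libraries with the same number, 0 had a correlation of deviations over 0.1 (-0.0319 to 0.0427). A low correlation does not show whether libraries with the same number were handled together.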
